A study of Homo sapiens with 2 samples.

Results

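Of the 17847 SOX9 peaks called in HT-29 cells, 695 had their summit within 1 kb of a transcription start site (TSS) of a gene annotated as long noncoding RNA (lncRNA) and farther than 3 kb from every TSS of a protein-coding gene. These lncRNA promoter peaks were chosen by position alone, from the peak table and the GENCODE annotation (release 44, placed on GRCh37/hg19). Every peak in that table had passed the peak caller's cut-off for ChIP against input, a p of 1e-07. Beyond this, neither tags, nor the input, nor sequence entered the choice. The 695 peaks were nearest to 652 different lncRNA genes, and 352 of them were nearest to a gene that the annotation names only by an identifier. Another 1977 peaks within 1 kb of a lncRNA TSS were left out because a protein-coding TSS lay within 3 kb. HT-29 is an established human colorectal adenocarcinoma line, and the labels name no transgene, knockdown or drug for either library. Chromatin fixed with formaldehyde was immunoprecipitated with an antibody against SOX9 (Millipore), and sequenced beside input DNA of the same line taken without antibody. There was 1 ChIP library and 1 input library, of 12320108 tags each after the input had been reduced to the number of the ChIP. With no replicate, no test between groups was made, and the intervals given below cover counting error only, since peaks and genes are not replicates of an experiment.

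SOX9 is a transcription factor with an HMG-box domain that binds a short AT-rich sequence, and in the intestine it is known from the progenitor cells of the crypt. Long noncoding RNAs are transcripts with no known protein product. Some start at CpG-rich promoters much like those of coding genes, others start at CpG-poor, enhancer-like DNA, and they include hosts of small nucleolar RNAs and microRNAs and scaffolds of nuclear bodies. Among factors that bind near start sites, the trimer NF-Y recognises CCAAT, ETS factors recognise a core of GGAA, and the FOS and JUN proteins form AP-1, which binds TGACTCA and its reverse complement.

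The lncRNA promoter peaks were set beside 8655 peaks within 1 kb of a protein-coding TSS and beside 7073 distal peaks, which lay over 3 kb from every TSS of either kind. Over all 17847 peaks the median was 45 tags (quartiles 30 and 69), with a median fold enrichment of 10.4, the ratio of ChIP tags to those expected from the local input. The empirical false discovery rate given by the peak caller was at most 0.06% for the lncRNA promoter peaks.

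Windows of 100 bases to either side of 3 summits show how unlike the DNA under these peaks was. EPB41L4A-AS1, MIR210HG and LINC01132 were the 3 members found both among the 15 with the most tags and among the 10 of highest fold enrichment. Sequences are those of GRCh37 and are written 5′ to 3′ on the strand of the lncRNA. Capitals mark every match to 1 of the 7 motifs searched on both strands. The motifs were CCAAT, the extended CCAAT box (CCAAT after 2 purines and before C or G and a purine), the SOX consensus (AACAAAG, with A or T at positions 1, 2 and 6), the ETS sequence CCGGAAG, the AP-1 sequence TGACTCA with C or G at its centre, TATAAA, and the GC box GGGCGG. The windows lie at chr5:111496376-111496576 on the plus strand (EPB41L4A-AS1), chr11:568649-568849 on the minus strand (MIR210HG) and chr1:234859355-234859555 on the plus strand (LINC01132).
EPB41L4A-AS1: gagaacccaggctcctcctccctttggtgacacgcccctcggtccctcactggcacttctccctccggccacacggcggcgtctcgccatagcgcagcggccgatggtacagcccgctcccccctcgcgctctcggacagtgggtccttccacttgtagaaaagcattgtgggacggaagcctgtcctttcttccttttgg
MIR210HG: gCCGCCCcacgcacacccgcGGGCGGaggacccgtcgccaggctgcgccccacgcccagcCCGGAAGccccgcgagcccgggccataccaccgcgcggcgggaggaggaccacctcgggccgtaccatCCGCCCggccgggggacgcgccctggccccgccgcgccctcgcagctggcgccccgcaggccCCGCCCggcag
LINC01132: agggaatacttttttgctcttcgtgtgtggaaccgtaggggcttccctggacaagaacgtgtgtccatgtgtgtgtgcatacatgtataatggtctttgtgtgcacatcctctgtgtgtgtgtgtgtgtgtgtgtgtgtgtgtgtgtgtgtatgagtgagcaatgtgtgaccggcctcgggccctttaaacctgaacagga
The MIR210HG window held 1 ETS sequence and 4 GC boxes. The windows of EPB41L4A-AS1 and LINC01132 held none of the 7 motifs, and the LINC01132 window ran through a long repeat of TG.

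Single sites under other members with many tags are given with 20 bases on either side, read on the strand that carries the match. Capitals mark the 1 match each stretch is centred on, and other matches in a stretch are left in lower case. They are examples from members with many tags, not the members with the most tags for each motif. Extended CCAAT boxes stood at chr16:2955862-2955910 (ENSG00000289222), chr19:42901129-42901177 (LIPE-AS1) and chr17:74667965-74668013 (ENSG00000261335).
ENSG00000289222: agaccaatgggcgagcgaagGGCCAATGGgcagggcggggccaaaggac
LIPE-AS1: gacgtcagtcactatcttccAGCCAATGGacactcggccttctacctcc
ENSG00000261335: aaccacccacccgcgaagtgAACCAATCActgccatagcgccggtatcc
SOX matches stood at chr20:48884186-48884232 (PELATON), chr15:38365151-38365197 (LINC01852) and chr2:114735761-114735807 (LINC01191).
PELATON: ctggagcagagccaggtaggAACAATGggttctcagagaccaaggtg
LINC01852: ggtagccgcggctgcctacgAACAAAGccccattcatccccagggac
LINC01191: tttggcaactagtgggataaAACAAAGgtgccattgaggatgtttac
ETS matches stood at chr7:152161106-152161152 (LINC01003) and chr9:96929024-96929070 (MIRLET7A1HG), and AP-1 matches at chr11:1799832-1799878 (ENSG00000230834) and chr17:25659951-25659997 (ENSG00000266313).
LINC01003: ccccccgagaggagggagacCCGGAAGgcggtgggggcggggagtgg
MIRLET7A1HG: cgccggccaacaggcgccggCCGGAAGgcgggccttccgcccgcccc
ENSG00000230834: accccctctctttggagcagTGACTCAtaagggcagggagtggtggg
ENSG00000266313: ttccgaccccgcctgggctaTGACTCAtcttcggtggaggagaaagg
A match is a description of the letters and was not tested as a binding site.

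By the choice, every summit lay within 1 kb of a lncRNA start site, and distances were taken to the nearest annotated TSS. Within that limit, SOX9 summits lay more often upstream than downstream of the lncRNA start sites. Of the 695 summits, 441 (63.5%, Wilson 95% interval 59.8 to 67.0) were upstream of the nearest lncRNA TSS, against 70.5% (69.5 to 71.4) of the summits of protein-coding promoter peaks upstream of the nearest coding TSS. The median position was −32 bp (quartiles −166 and 62.5) for lncRNA promoter peaks and −39 bp (quartiles −106 and 6) for protein-coding promoter peaks. The most filled class of 50 bp was the same in both groups, the 50 bp just upstream of the TSS, and it held 20.4% of lncRNA promoter peaks and 25.8% of protein-coding promoter peaks. The spread was wider at lncRNA genes. The summit lay within 100 bp of the TSS in 44.5% (40.8 to 48.2) of lncRNA promoter peaks, against 63.2% (62.1 to 64.2) of protein-coding promoter peaks, and within 300 bp in 70.8% (67.3 to 74.1) against 86.9% (86.2 to 87.6). Start sites of lncRNAs rest on fewer transcripts, with a median of 1 TSS per lncRNA gene that had a TSS over 3 kb from coding TSSs and 5 per coding gene, and the part of this in the wider spread was not tested.

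**Figure D1:**
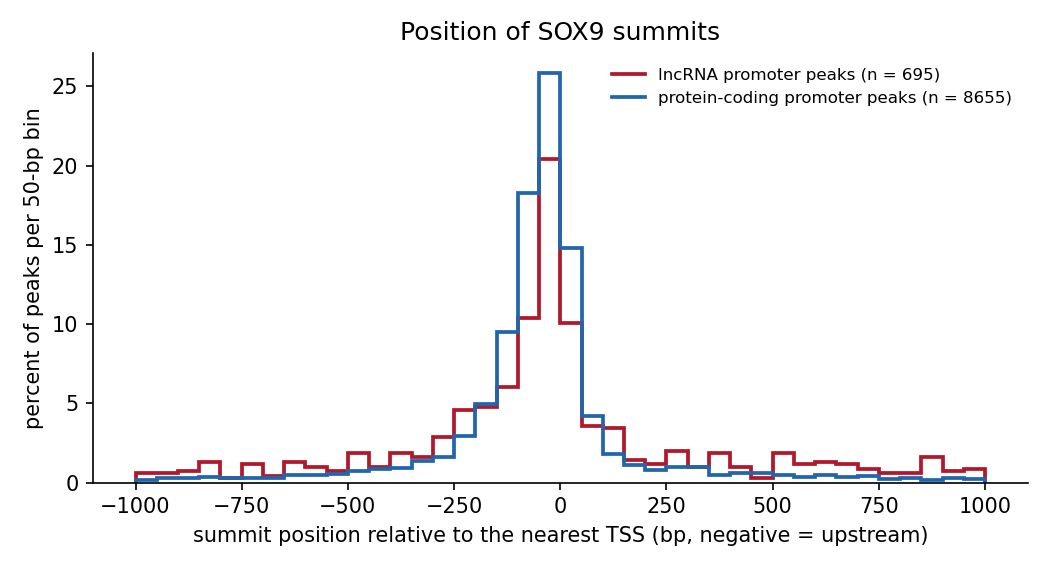
Percent of peaks (y axis) in 50-bp classes of the distance from summit to nearest TSS (x axis, bp, negative is upstream), for the 695 lncRNA promoter peaks and the 8655 protein-coding promoter peaks. Both lines are highest in the 50 bp upstream of the TSS, at 20.4% and 25.8%, and the lncRNA line stays higher far from the TSS.

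The signal maps give the size of the ChIP signal around the start sites, whose presence there was fixed by the choice of peaks with a summit within 1 kb. Averaged over the 695 lncRNA start sites, the ChIP signal within 500 bp of the TSS was 8.01 extended tags per 32-nt bin and the input signal was 2.26, a ratio of 3.55. Over the protein-coding promoter peaks the ChIP signal was 9.96 and the input signal 2.46, a ratio of 4.05. The ChIP signal was highest in the bin 32 bp upstream of the lncRNA TSS, at 15.4 with an input of 2.88 there, and 64 bp upstream of the coding TSS, at 21.4 with an input of 3.24. The input was thus also raised at these start sites, and its part in the calling of peaks there was not tested. The genes without a summit were chosen for lacking one and serve as the level of the maps elsewhere. At the 12617 lncRNA genes with no summit within 1 kb of the gene's 5′ end, the ChIP signal was 0.793 and the input signal 0.739, a ratio of 1.07. Among these genes, the 969 with a CpG-rich 5′ end had a ChIP signal of 1.20 and an input signal of 0.715, a ratio of 1.68, and the 11648 with a CpG-poor 5′ end had 0.759 and 0.741, a ratio of 1.02.

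**Figure D2:**
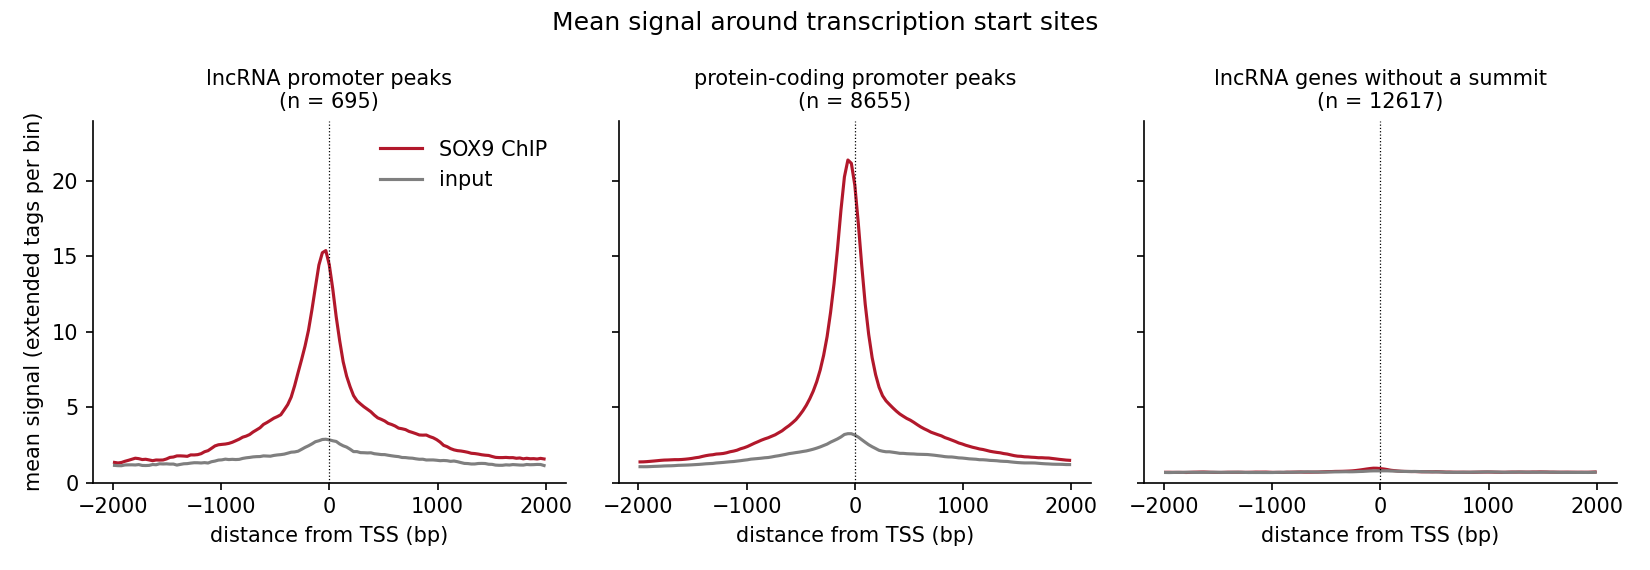
Mean ChIP and input signal (y axis, extended tags per 32-nt bin) against distance from the TSS (x axis, bp, negative is upstream), for 695 lncRNA promoter peaks, 8655 protein-coding promoter peaks and 12617 lncRNA genes with no summit within 1 kb. The ChIP line reaches 15.4 at lncRNA start sites and 21.4 at coding start sites, and stays below 1 at lncRNA genes without a summit.

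In tags per interval the lncRNA promoter peaks stood between the other 2 classes. Their median was 48 tags (95% interval of the median 45 to 50, quartiles 31 and 70), against 56 tags (55 to 56) in protein-coding promoter peaks and 36 tags (35 to 37) in distal peaks. At least 100 tags were reached by 87 lncRNA promoter peaks, 12.5% (10.3 to 15.2), beside 10.9% of all peaks, 15.6% (14.8 to 16.4) of protein-coding promoter peaks and 5.87% (5.34 to 6.44) of distal peaks. The interval of the lncRNA group thus held the share over all peaks. Fold enrichment differed little, with medians of 10.4 (9.92 to 10.8) in lncRNA promoter peaks, 10.0 (9.89 to 10.1) in protein-coding promoter peaks and 10.8 (10.7 to 10.99) in distal peaks. The width of the interval followed the same order as the tags, with medians of 807 bp in lncRNA promoter, 901 bp in protein-coding promoter and 697 bp in distal peaks. Within the peak intervals, the highest bin of the ChIP map differed less. Its median was 20 extended tags in lncRNA promoter, 21 in protein-coding promoter and 18 in distal peaks. The highest bin of the input map held 5 in the median lncRNA promoter peak. The ChIP signal was at least 4 times the input signal in 388 lncRNA promoter peaks, 55.8% (52.1 to 59.5), beside 56.6% of all peaks, 53.03% (52.0 to 54.1) of protein-coding promoter peaks and 61.1% (59.9 to 62.2) of distal peaks.

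**Figure D3:**
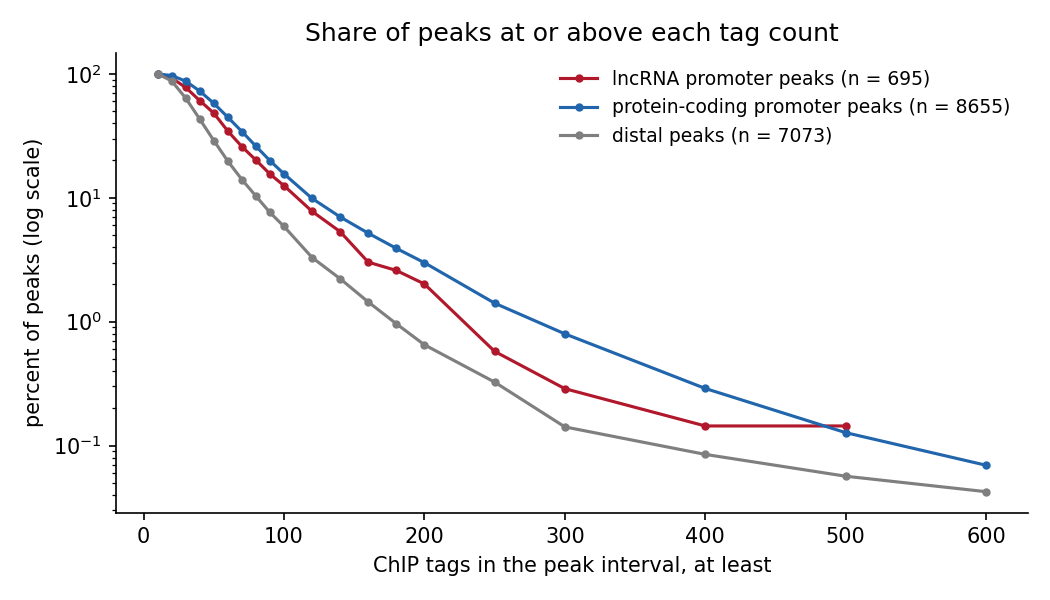
Percent of peaks (y axis, log scale) that held at least the number of ChIP tags on the x axis, for lncRNA promoter, protein-coding promoter and distal peaks. The lncRNA line runs between the other 2 from 20 to 400 tags, for example at 100 tags with 12.5%, against 15.6% and 5.87%, and the last lncRNA point is the single peak of 543 tags.

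The members with the most tags included peaks in regions of raised input, 5 of them on chromosome 8, and peaks whose own interval had a tall ChIP signal and a low input signal. The peak with the most tags lay 913 bp downstream of the start of CCAT2, a lncRNA named for its link to colon cancer, at chr8:128412228-128414736. It held 543 tags (exact Poisson interval 498 to 591), a highest ChIP signal of 197 and a highest input signal of 14. Its summit was inside the body of POU5F1B, 7714 bp from the coding TSS of that gene. The next 4 members were on chromosome 8 too: ENSG00000289405 with 355 tags, ENSG00000287657 with 279, CASC19 with 261 and PVT1, the neighbour of MYC, with 247. Input within 500 kb of these 5 summits was between 2.72 and 4.71 times the autosomal median, and fold enrichment, which allows for the local input, was 25.3 at CCAT2, 11.7 at ENSG00000289405, 7.40 at CASC19, 5.73 at PVT1 and 5.19 at ENSG00000287657. The 13 members on chromosome 8 beyond position 120 Mb had a median of 150 tags but a median fold enrichment of 9.33, against 48 tags and 10.4 for the 668 members on other chromosomes. More copies of this region in HT-29 and stronger binding cannot be told apart from tags alone.

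MIR210HG, the host of the hypoxia-linked microRNA miR-210, and EPB41L4A-AS1, which hosts a small nucleolar RNA, had tall ChIP signal and little input signal in the interval. MIR210HG held 242 tags, with a highest ChIP signal of 140 and a highest input signal of 4, and a fold enrichment of 66.1. Input within 500 kb of it was 1.5 times the autosomal median, and 0.811 times at EPB41L4A-AS1. EPB41L4A-AS1 held 241 tags, with a highest ChIP signal of 208 and a highest input signal of 5, and its fold enrichment of 113 was the largest among the 695 members. Its summit was 81 bp upstream of its TSS and lay inside the gene body of EPB41L4A on the opposite strand, 22608 bp from the coding TSS. LINC01132 had 214 tags, a highest ChIP signal of 75 against an input of 5, and a fold enrichment of 43.5. KCNQ1OT1, the imprinted RNA transcribed against KCNQ1, held 211 tags, with a ChIP signal of 135, an input of 10 and a fold enrichment of 28.6, with input within 500 kb at 1.57 times the autosomal median. MIRLET7A1HG, the host of a let-7 microRNA, held 213 tags at a fold enrichment of 25.4.

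Among the remaining members of the top 15, the input set some apart. LINC00910 held 238 tags, but its highest ChIP signal of 90 stood beside an input of 47, the highest input of any member, and its fold enrichment was 5.90. The summit of LINC00543 lay 13277 bp from the TSS of the intestinal homeobox gene CDX2, and its peak had 221 tags, a fold enrichment of 8.57 and a local input of 2.49 times the autosomal median. ENSG00000288919, 4168 bp from the TSS of ZFP36, held 216 tags at a fold enrichment of 8.77. LINC01003 had 213 tags at a fold enrichment of 14.4 and PELATON had 197 at 13.4. Over these 15 members, 10 had local input of at least 1.5 times the autosomal median, 6 had a fold enrichment below the median of all members, and 11 had a ChIP signal at least 4 times the input.

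**Figure D4:**
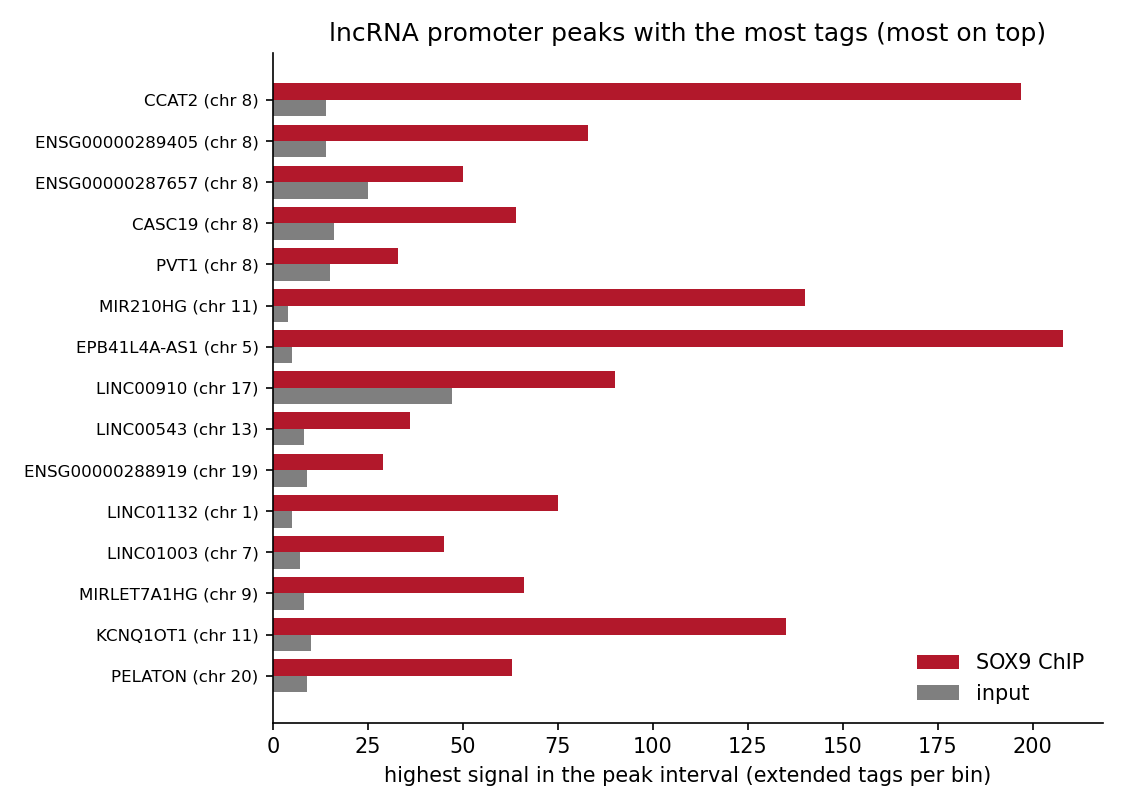
Highest signal in the peak interval (x axis, extended tags per 32-nt bin) in the ChIP and the input library for the 15 lncRNA promoter peaks with the most tags, ordered from the most tags on top. EPB41L4A-AS1 (208 against 5), MIR210HG (140 against 4) and KCNQ1OT1 (135 against 10) show tall ChIP bars beside short input bars, while PVT1 (33 against 15), ENSG00000287657 (50 against 25) and LINC00910 (90 against 47) do not.

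Of the DNA under the lncRNA promoter peaks, a part was CpG-rich and a part CpG-poor. A window of 250 bp to either side of the summit was counted as CpG-rich where GC was at least 50% and the observed over expected CpG ratio at least 0.6. By this measure 318 of the 695 lncRNA promoter peaks were CpG-rich, 45.8% (42.1 to 49.5), against 84.3% (83.5 to 85.0) of protein-coding promoter peaks and 5.90% (5.37 to 6.47) of distal peaks. The share over all peaks was 46.6%, inside the interval of the lncRNA promoter peaks. CpG-rich members became fewer with distance from the start site, with 58.6% (53.01 to 63.9) of the 309 members within 100 bp of the TSS, 43.2% (36.2 to 50.4) of those over 100 and up to 300 bp from it and 28.6% (22.8 to 35.1) of those farther away. They were also fewer far from coding genes, at 56.1% (47.5 to 64.2) where the nearest coding TSS was 3 to 10 kb away and 33.3% (27.7 to 39.4) where it was over 50 kb away.

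Motif matches within 100 bp of the summit were counted beside those of the other classes and of all peaks. For the extended CCAAT box, CCAAT, SOX, AP-1, TATA and the GC box, the interval of the lncRNA promoter peaks held the share over all peaks, and for ETS it lay below that share. The extended CCAAT box occurred in 62 lncRNA promoter peaks, 8.92% (7.02 to 11.3), against 14.8% (14.1 to 15.6) of protein-coding promoter peaks, 2.80% (2.44 to 3.21) of distal peaks and 8.98% of all peaks. In windows of the same length 1 kb to either side of the member summits it occurred in 1.22% (0.765 to 1.95). The bare CCAAT was found in 24.6% (21.6 to 27.9) of lncRNA promoter peaks and in 22.5% (20.4 to 24.8) of their flanking windows, so the 5 letters alone hardly separated the summits from their surroundings. CCAAT was found in 30.7% (29.7 to 31.6) of protein-coding promoter peaks, 22.5% (21.5 to 23.5) of distal peaks, which is inside the interval of the lncRNA promoter peaks, and 26.4% of all peaks. At least 2 CCAAT boxes were found in 8.35% (6.51 to 10.6) of lncRNA promoter peaks, against 13.7% (13.0 to 14.4) of protein-coding promoter peaks and 3.52% (3.12 to 3.98) of distal peaks.

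ETS and GC box sequences, both typical of CpG-rich promoters, followed the same order. The ETS sequence was found in 6.62% (4.999 to 8.72) of lncRNA promoter peaks and 1.08% of their flanking windows, against 16.1% (15.3 to 16.8) of protein-coding promoter peaks, 2.11% (1.797 to 2.47) of distal peaks and 9.17% of all peaks. The GC box was found in 40.3% (36.7 to 43.98) of lncRNA promoter peaks, against 61.3% (60.3 to 62.4) of protein-coding promoter peaks, 11.3% (10.6 to 12.0) of distal peaks and 37.8% of all peaks. The SOX consensus and AP-1 ran the other way. The SOX consensus was found in 18.6% (15.9 to 21.6) of lncRNA promoter peaks, against 7.68% (7.14 to 8.26) of protein-coding promoter peaks and 35.5% (34.4 to 36.7) of distal peaks, with 20.5% over all peaks. The flanking windows of the lncRNA promoter peaks held it in 17.6% (15.7 to 19.7), about as often as the summits. AP-1 was found in 13.2% (10.9 to 15.96) of lncRNA promoter peaks and in 3.02% (2.24 to 4.06) of their flanking windows, against 3.52% (3.16 to 3.93) of protein-coding promoter peaks, 21.7% (20.8 to 22.7) of distal peaks and 12.0% of all peaks. TATAAA was found in 6.19% (4.63 to 8.23) of lncRNA promoter peaks, which was below the 11.7% (10.1 to 13.5) in their flanking windows, against 2.83% in protein-coding promoter peaks, 13.4% in distal peaks and 7.58% of all peaks.

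**Figure D5:**
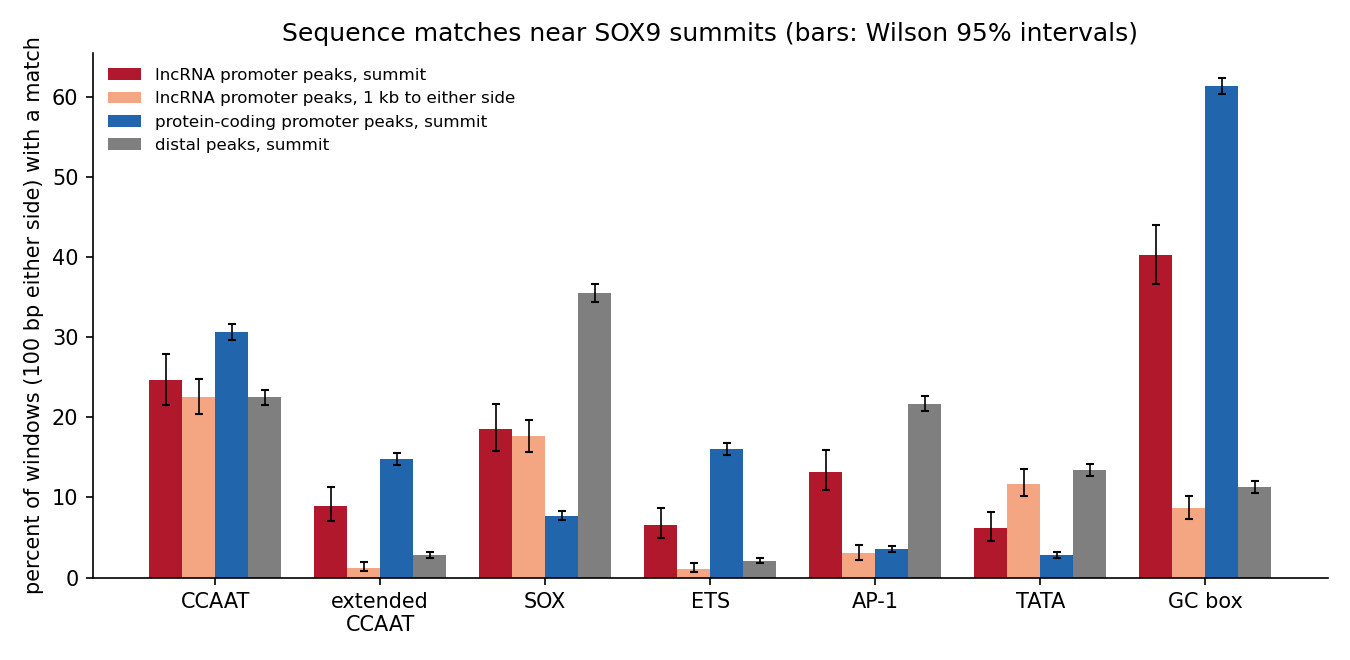
Percent of windows of 100 bp to either side with a match on either strand (y axis) for 7 sequence motifs (x axis), at the summits of lncRNA promoter peaks, 1 kb to either side of them, and at the summits of protein-coding promoter and distal peaks, with Wilson 95% intervals. The bars of the lncRNA promoter peaks stand between those of the other 2 classes, for example AP-1 at 13.2%, against 3.52% and 21.7%, although for CCAAT their interval holds the distal share, and bare CCAAT and SOX differ little between summits and flanks.

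Split by CpG content, the members held different motifs. In the 318 CpG-rich members the extended CCAAT box occurred in 14.5% (11.02 to 18.8), and in the 377 CpG-poor members in 4.24% (2.63 to 6.78). ETS occurred in 10.4% (7.49 to 14.2) of CpG-rich members and 3.45% (2.03 to 5.81) of CpG-poor members. The SOX consensus occurred in 8.18% (5.64 to 11.7) of CpG-rich members, below the 16.4% of their flanking windows, and in 27.3% (23.1 to 32.03) of CpG-poor members, above the 18.7% (16.1 to 21.6) of theirs. AP-1 occurred in 5.03% (3.12 to 8.02) of CpG-rich members and 20.2% (16.4 to 24.5) of CpG-poor members. For all 4 motifs the intervals of the CpG-rich and CpG-poor members did not overlap. The split was not particular to the members. In protein-coding promoter peaks, SOX occurred in 5.74% of CpG-rich and 18.1% of CpG-poor peaks, and the extended CCAAT box in 16.2% and 7.7%. In distal peaks these shares were 9.35% and 37.2% for SOX, and 7.43% and 2.51% for the extended CCAAT box. ETS and AP-1 also split the same way in both kinds of peak. The CpG-rich class was set in part by GC content, and the part of composition in these splits was not tested.

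Each CpG class was then set beside the peaks of like composition. CpG-rich lncRNA promoter peaks had the extended CCAAT box about as often as CpG-rich protein-coding promoter peaks (16.2%, 15.3 to 17.0), but ETS less often than these (17.8%, 16.9 to 18.7) and AP-1 more often (1.62%, 1.35 to 1.93), with intervals that did not overlap and no test run. In CpG-rich distal peaks, ETS at 7.67% (5.49 to 10.6) and AP-1 at 5.28% (3.51 to 7.86) had intervals that overlapped those of the CpG-rich lncRNA promoter peaks, and the extended CCAAT box was found in 7.43% (5.29 to 10.4). CpG-poor lncRNA promoter peaks had AP-1 at a share whose interval overlapped that of CpG-poor distal peaks (22.8%, 21.8 to 23.8), while the SOX consensus was less frequent than in those (37.2%, 36.0 to 38.4). Protein-coding promoter peaks that were CpG-poor held the SOX consensus in 18.1% (16.1 to 20.2) and AP-1 in 13.7% (12.0 to 15.7), both below the shares in CpG-poor lncRNA promoter peaks. CpG-rich members had a median of 51 tags (48 to 55) and CpG-poor members 43 (39 to 48).

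Motif sites were searched only within 100 bp of the summit, which bounds where they could lie relative to the start. The 83 extended CCAAT boxes had a median position of −67 bp from the lncRNA TSS (quartiles −122.5 and −33), the stretch upstream of the start where CCAAT boxes of coding genes are known to lie. The 54 ETS sites were centred on −21 bp (quartiles −99.3 and 14). The 158 SOX sites were spread more widely, between quartiles of −314 and 81.8 bp, as were the 110 AP-1 sites, between −236 and 98 bp. On the strand of the lncRNA lay 42 of the 83 extended CCAAT boxes and 68 of the 158 SOX sites. The 129 members with a SOX match had a median fold enrichment of 11.8 (10.4 to 13.5) and the 62 with an extended CCAAT box 11.5 (9.29 to 14.5). The 333 members with none of CCAAT, SOX, ETS and AP-1, 47.9% of all members, had a median of 9.43 (8.76 to 10.2). The interval of the members with an extended CCAAT box overlapped that of these 333. By tags all intervals overlapped. Medians were 49 tags (39 to 54) with SOX, 53.5 (42 to 60) with the extended CCAAT box and 45 (42 to 50) with none. CCAAT occurred together with SOX in 27 members, with AP-1 in 24 and with ETS in 8, and SOX together with AP-1 in 20. Such pairs were not counted over all peaks, so that these counts are not read as few or many.

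Member summits were near a small share of the lncRNA genes that could have one. Of 18702 annotated lncRNA genes, 13856 had a TSS over 3 kb from every coding TSS, and 750 of these, 5.41% (5.05 to 5.80), had a member summit within 1 kb, against a summit of any kind at 44.8% (44.1 to 45.5) of 20176 protein-coding genes. The sets are not alike, since lncRNA start sites near coding ones were left out and no such limit was put on coding genes. Coding genes have more annotated start sites, but the gap was also there among genes with a single TSS, at 3.58% (3.22 to 3.99) of 8930 lncRNA genes against 17.9% (16.6 to 19.2) of 3265 coding genes. CpG content also differed between the gene classes. Measured at gene 5′ ends, 9.74% of the lncRNA genes were CpG-rich, against 58.9% of coding genes. A summit lay within 1 kb of the 5′ end in 24.8% (22.5 to 27.2) of CpG-rich and 2.55% (2.28 to 2.85) of CpG-poor lncRNA genes, and in 56.3% (55.4 to 57.2) of CpG-rich and 11.9% (11.3 to 12.7) of CpG-poor coding genes. Within each composition class the lncRNA share was lower. Whether a lncRNA gene is transcribed in HT-29 was not measured here, so that bound genes among expressed ones could not be counted.

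The share of genes with a peak differed between kinds of lncRNA. It also rose with the number of annotated start sites. A member summit was found at 3.58% of eligible genes with 1 TSS, 5.60% with 2 to 4 and 13.8% with 5 or more. The part of this in the differences between kinds, and in the gene lists below, was not tested. Those lists were chosen with earlier results of these data known. Of the eligible genes named as hosts of small nucleolar RNAs or microRNAs, 30 of 94 had a member summit, 31.9% (23.4 to 41.9). The share was 12.1% (9.96 to 14.6) of 770 genes with another symbol, 7.75% (6.70 to 8.95) of 2181 genes with a LINC name, 5.67% (4.37 to 7.33) of 952 antisense genes, 2.61% (0.891 to 7.39) of 115 genes named as divergent transcripts and 4.12% (3.74 to 4.53) of 9744 genes with an identifier only. By the choice, no summit within 3 kb of a coding TSS could count. Divergent transcripts are named for starting beside another gene, so that the choice may limit their share, which is not read as a trait. The 30 members nearest to a host gene were CpG-rich in 83.3% (66.4 to 92.7). Their median was 75.5 tags (52 to 79), against 44 (38 to 51) for the 167 members nearest to a LINC gene. Fold enrichment had overlapping intervals, with medians of 10.98 (8.67 to 11.5) for host genes and 9.89 (8.79 to 10.7) for LINC genes. Median widths were 918 and 841 bp. The 52 members nearest to an antisense gene had their summit upstream of the TSS in 76.9% (63.9 to 86.3), against 54.5% (46.9 to 61.9) for LINC genes.

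Small nucleolar RNA hosts have introns that release RNAs that guide the modification of ribosomal RNA. Their share of eligible genes with a member was the largest after that of the nuclear body and structural RNAs. Of the 31 symbols listed, 30 were lncRNA genes in the annotation, 22 of these had a TSS over 3 kb from coding TSSs, and 15 had a member peak, beside 5.41% of all eligible lncRNA genes and 12.1% of those with another symbol, while 12 others had summits only beside a coding TSS, among them GAS5 and SNHG1. After EPB41L4A-AS1, SNHG29 had the most tags, 159 (135 to 186), with a ChIP signal of 99, an input of 6 and a summit 27 bp upstream of the TSS. SNHG11 had 87 tags, with a ChIP signal of 59 and an input of 17, and SNHG7 had 85, with 47 and 6. All 15 peaks were CpG-rich. Their summits were between 95 bp upstream and 125 bp downstream of the nearest lncRNA TSS. At SNHG16 and SNHG21 that TSS belonged to another lncRNA gene, so their distances are not those from the host. Tags ran from 42 at SNHG8 to 241 at EPB41L4A-AS1. CCAAT was found in 4 of the 15, beside 24.6% of all members and 26.4% of all peaks. No SOX, AP-1 or ETS match was found in the 15, beside 18.6%, 13.2% and 6.62% of all members. The 15 were CpG-rich, where SOX and AP-1 were rarer, as given above. With so few peaks these counts are not read as a trait of the hosts, and none was tested.

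Among microRNA hosts, 15 of 38 eligible genes had a member, beside 5.41% of all eligible lncRNA genes. Beside MIR210HG and MIRLET7A1HG, these included MIR31HG with 96 tags (78 to 117) and MIR17HG, the host of an oncogenic microRNA cluster, with 79 and 52 tags in 2 peaks. MIR663AHG had 101 tags, but a ChIP signal of 47 beside an input of 26, with input within 500 kb at 0.388 times the autosomal median. MIR200CHG, whose microRNAs keep cells epithelial, had 79 tags at a fold enrichment of 7.97. DLEU2, which hosts the miR-15a and miR-16-1 pair, had 52 and 27 tags. Fold enrichment over the 20 peaks of this list ran from 5.57 to 66.1. Among those without a member were MIR155HG, MIR34AHG and MIR205HG.

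Of a list of nuclear body and structural RNAs, which also held NORAD, TERC, KCNQ1OT1 and JPX, 8 of 11 eligible genes had a member. This stands beside 5.41% of all eligible lncRNA genes and 12.1% of those with another symbol. Among these 8 genes, KCNQ1OT1 had the most tags. NEAT1, the scaffold of paraspeckles, had 116 tags (95.9 to 139), a ChIP signal of 37 and an input of 6, with the summit 34 bp downstream of the TSS. MALAT1, found in nuclear speckles, had 3 peaks of 96, 63 and 55 tags, at fold enrichments of 13.1, 4.65 and 11.1. In that order they lay at chr11:65264709-65265461, chr11:65270885-65272471 and chr11:65266202-65266909. Each was beside a different annotated MALAT1 TSS, so they are not 3 peaks of 1 promoter. TALAM1, transcribed against MALAT1 and not on the list, had 147 tags at a fold enrichment of 6.55. The local input at NEAT1 and MALAT1 was between 1.84 and 1.87 times the autosomal median. NORAD, which binds Pumilio proteins, had 84 tags, with a ChIP signal of 61, an input of 7 and an ETS match. TERC, the RNA template of telomerase, had 61 tags and a CCAAT box. JPX, of the X-inactivation centre, had 82 tags at a fold enrichment of 38.6.

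Of the lncRNAs listed as linked to colorectal cancer, 8 of 29 eligible genes had a member, beside 5.41% of all eligible lncRNA genes and 12.1% of those with another symbol. Another 9 had summits only beside a coding TSS, CRNDE among them. CCAT2, CASC19 and PVT1 are given above. LINC00511 had 4 peaks, of 129, 48, 39 and 27 tags. The first of these had a fold enrichment of 25.7 with local input at 1.05, its summit 95 bp upstream of the TSS, and none of the 7 motifs. ELFN1-AS1 had 60 tags and LUCAT1 had 30, with its summit on the TSS and an AP-1 match. H19, HOTAIR, UCA1 and MEG3 were among the 17 genes of the list with no summit within 1 kb of a TSS. Of the p53-responsive lncRNAs 3 of 8 eligible genes had a member, NEAT1, PVT1 and LINC-PINT, and of lncRNAs beside SOX genes 1 of 12, SOX2-OT, with 18 tags (10.7 to 28.5) 954 bp downstream of its TSS. Both counts stand beside the 5.41% of all eligible lncRNA genes, and 1 of 12 is near that share. None of the lists was tested. SOX9-AS1 had a summit only within 3 kb of a coding TSS.

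Most genes had a single peak. A single member was nearest to 616 genes, 2 members to 31 genes and 3 or more to 5 genes, DRAIC, LINC00511, LINC02577, LIPE-AS1 and MALAT1. The 4 peaks at DRAIC had 84, 57, 42 and 39 tags, and 3 of these, all but the one of 42 tags, were CpG-poor with a SOX match. LIPE-AS1 showed both kinds of peak in 1 gene. Its peak of 172 tags lay 54 bp upstream of a TSS in CpG-rich DNA with the extended CCAAT box printed above, and its peak of 131 tags lay 994 bp downstream of another TSS in CpG-poor DNA with a SOX match.

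The surroundings of the members varied. The nearest coding TSS was 3 to 10 kb away in 132 members, 10 to 50 kb in 317 and over 50 kb in 246. The summit lay inside the body of a coding gene in 104, of which 73 were on the opposite strand to the lncRNA, 30 on the same strand and 1 in genes on both strands. Medians were 42 tags (36 to 51) inside and 49 (45 to 51) outside coding gene bodies. A second lncRNA gene had a TSS within 1 kb in 102 members, and in 90 members a lncRNA TSS on the opposite strand did. These 102 summits lay near the start, at a median of −20.5 bp with quartiles of −65.8 and 8.75, and had a median of 52 tags. They were CpG-rich in 71.6% (62.2 to 79.4) and held the extended CCAAT box in 22.5% (15.5 to 31.6), against 41.3% (37.4 to 45.3) and 6.58% (4.85 to 8.86) of the 593 members with a single lncRNA gene within 1 kb. Over all peaks these shares were 46.6% and 8.98%. Peaks within 1 kb of both a lncRNA and a coding TSS were CpG-rich in 92.1% (90.8 to 93.2). The extended CCAAT box was found in 15.7% (14.1 to 17.4) of those peaks. The part of CpG content in the CCAAT shares was not tested. In 76 members a TSS of another gene type lay within 1 kb as well, so that the signal there cannot be assigned to the lncRNA alone.

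Local input went with tags. In the 120 members where input within 500 kb was at least 1.5 times the autosomal median, the median was 68 tags (60 to 80) at a fold enrichment of 8.95 (8.04 to 10.1), against 44 tags (40 to 47) at 10.7 (10.2 to 11.2) in the other 575. CpG-rich DNA was found in 37.5% (29.4 to 46.4) of these 120 members and in 47.5% (43.4 to 51.6) of the 575. Members were found on 23 chromosomes, and their share of a chromosome's peaks ran from 2.09% on chromosome 19 to 5.71% on chromosome 7. At the limits of the choice, LIPE-AS1 (summit at 994 bp, 131 tags) and LINC02577 (summit at −991 bp, 34 tags) were the last inside 1 kb, and LINC01775 (summit at −1007 bp, 45 tags) and ENSG00000261578 (summit at −1018 bp, 49 tags) the first outside. At the other limit, ENSG00000266963 was kept with a coding TSS 3073 bp away and 59 tags, and ENSG00000230536 was left out with one 2941 bp away and 18 tags.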

How the data were processed

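1 SOX9 ChIP library and 1 input library of HT-29 cells were analysed. The culture medium is given as DMEM in the labels and differs in the study's methods. Per the submitters' processing notes, reads were aligned with BWA (version not given in the sources used here) to hg19. The authors kept unique alignments without duplicates, downsampled the input to 12320108 tags, and called peaks on the single library with MACS (p cut-off 1e-07, band width 150, tag size 50, model fold 16). In the deposited peak table, tags are a count of ChIP tags in the interval, the score is −10 times the log10 of the MACS p, fold enrichment is the ratio to the local input, and the false discovery rate is a percent. The deposited maps give a signal per bin of 32 nt, for which the authors extended each tag to 150 bp and counted the tags over the bin, with no further scaling. Duplicate removal limits the tags of narrow peaks, and unique alignment limits signal in repeats.

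Summits were placed against the TSSs of all transcripts of GENCODE release 44 on GRCh37. Chromosome names and ends of all peaks fitted the GRCh37 sequence, from which windows and motifs were read. Shares have Wilson intervals, medians order-statistic intervals and tags exact Poisson intervals, all at 95% and all for counting error only. Local input was the mean input within 500 kb over its autosomal median. Genes were named where they were nearest to the 15 members with the most tags, among the first of each gene list by tags, or next to the distance limits. Other members named were chosen after their values were seen. Sequences under members on chromosome 8 and under 1 other member are not reported here. The members, gene lists and motifs were chosen with earlier results of these data known. Distances, motif search and intervals were tested on simulated data. Sequences were read with pysam 0.24.0, tables with pandas 2.3.3, figures drawn with matplotlib 3.10.9, and intervals computed with SciPy 1.17.1 and NumPy 2.4.6 under Python 3.11.15. Alternatives covered the TSS set, distances, peak position, peak threshold, input, coding gene bodies and motif window, and 2 were chosen after seeing the data, as was the comparison of ChIP with input under each of them.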

Additional observations from a re-analysis of the deposited data

How the results depend on the processing

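With 1 library of each kind, no alternative could leave out a replicate. No paired analysis was possible because the result comes from no test. The number of members ran from 471 at a score of at least 100 to 896 at 2 kb in place of 1 kb, and it stayed within 1.5 times 695 under all 13 alternatives. With gene 5′ ends only, the median was 51 tags and the SOX consensus was found in 13.8%. At 500 bp in place of 1 kb, 68.1% of summits were upstream, the SOX consensus was found in 15.8% and 4.48% of eligible genes had a summit. At 2 kb this share of genes was 6.67%. By the interval midpoint, 56.9% were upstream. At a score of at least 100, the median was 58 tags, 3.77% of eligible genes had a summit and 66.5% of members had a ChIP signal at least 4 times the input. Without summits in coding gene bodies, 4.65% of eligible genes had a summit. The motif shares followed the window, with CCAAT in 15.0% and SOX in 11.1% of members within 50 bp, and in 62.2% and 51.4% in the whole interval. Without the members of local input of at least 1.5, an alternative chosen after seeing the data, the median was 44 tags and 4.54% of eligible genes had a summit. Without chromosome 8, also chosen after seeing the data, no value moved beyond its interval. The ratio of the medians of lncRNA over protein-coding promoter peaks was 0.857 by tags and 0.952 by highest signal. For the values that moved, the cause was not tested beyond the construction of each alternative. Peaks under the caller's threshold were not seen, so that a gene without a member is not shown to be unbound.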
